A study of Mus musculus with 2 samples.

Results

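Dividing monocytes and macrophages of the mouse heart were picked from a pool of cardiac CD45+ cells by their reads of *Mki67* and *Top2a*. A cell counted as a monocyte or macrophage when it had at least 200 CPM (the reads of the gene per 1000000 reads of the cell) of *Csf1r*, at least 2000 CPM of *Lyz2* and less than 200 CPM of *Cd79a*, and as dividing when it also had at least 50 CPM of both *Mki67* and *Top2a*. Of 5263 cells with at least 500 genes and a mitochondrial share of reads of at most 0.4, 3384 passed the monocyte and macrophage gate, and 140 of these were dividing. The values of these 5 genes chose the cells, so they are given as a description only. For comparison, 3027 monocytes and macrophages with under 50 CPM of both division genes are called non-dividing, and 217 cells with only 1 of the genes at the limit were left out of both sets.

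The cells came from hearts taken 1 week after surgery and were profiled with TAS-Seq, a method that catches the RNA of single cells on barcoded beads in the microwells of a BD Rhapsody cartridge. The mice were male, aged 8 weeks and on a C57BL/6 background. In transverse aortic constriction (TAC) the aorta is narrowed, which loads the heart with pressure, whereas a sham operation leaves it open. Hashtags marked 5 groups, namely sham-operated WT and CD3ϵ-/- mice, WT and CD3ϵ-/- mice with TAC, and WT mice with TAC and an anti-CD8 antibody, labelled CD8-depleted. Values without a group name follow this order. CD3ϵ-/- mice lack T cells in all tissues, and the antibody was given from the day of surgery on. Each group was 1 hashtag sample without replicates, and the number of pooled hearts in it was not given in the sources used here, so no test was made between groups. Intervals are exact 95% intervals and cover counting error only, and reads of 1 RNA molecule are not independent.

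Most macrophages of the adult heart descend from embryonic precursors and are kept up by division in place, whereas blood monocytes enter the heart after injury and can become macrophages there. Division runs from DNA replication to mitosis. *Mki67* encodes a protein that coats mitotic chromosomes, and *Top2a* a topoisomerase that untangles replicated DNA. Growth of the pool by division and by entry of monocytes can go on side by side, and the type of a dividing cell is read here from genes that do not belong to the division program.

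T cell genes served to check the group labels in all kept cells. *Cd3d* or *Cd3g*, subunits of the T cell receptor complex, reached 50 CPM in 6.40%, 1.44%, 3.78%, 1.20% and 4.59% of the cells, so both CD3ϵ-/- groups had the lowest shares. *Cd3e* itself reached it in 3.40%, 1.32%, 2.48%, 2.94% and 3.36%, and it is not known from the sources used here which part of the gene the deletion takes. *Cd8a* or *Cd8b1*, the chains of CD8, reached it in 8 of 894 cells (0.895%, 0.387 to 1.76) of the antibody group and in 17 of 1615 cells (1.05%, 0.614 to 1.68) of WT TAC, so a lower share of CD8+ T cells was not detectable at this depth. These few cells do not decide whether the depletion worked. The paper also counted CD8+ T cells of the heart by flow cytometry, and those counts are not part of these data. The group is therefore named by its label.

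The dividing cells numbered 14, 13, 42, 38 and 33 in the 5 groups. They made up 2.48% of the 564 monocytes and macrophages in WT sham (1.36 to 4.13) and 2.74% of 474 in CD3ϵ-/- sham (1.47 to 4.64). The share was 3.86% of 1087 in WT TAC (2.80 to 5.19), 5.78% of 657 in CD3ϵ-/- TAC (4.13 to 7.85) and 5.48% of 602 in TAC labelled CD8-depleted (3.8 to 7.61). All TAC groups were thus above both sham groups by this rule, but the interval of WT TAC overlapped all others, and that of CD3ϵ-/- TAC began at 4.13%, where that of WT sham ended. With either gene at 50 CPM in place of both, the shares were 8.33%, 10.3%, 9.66%, 12.5% and 12.3%, so WT TAC was then below CD3ϵ-/- sham.

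The limit on *Lyz2*, the gene of lysozyme, took away more of the dividing cells than of the others. Of 300 kept cells with both division genes at the limit, 160 lay outside the gate, of which 67 had enough *Csf1r* but too little *Lyz2*, 10 enough *Lyz2* but too little *Csf1r*, 74 too little of both and 9 too much *Cd79a*. Among cells that passed the *Csf1r* and *Cd79a* limits, 41.7%, 18.8%, 41.7%, 17.4% and 32.7% of those with both division genes were below the *Lyz2* limit, against 10.4%, 8.21%, 12.1%, 10.7% and 9.28% of the non-dividing cells. Without that limit the dividing shares were 3.76%, 3.08%, 5.72%, 6.21% and 7.15%. The TAC groups stayed above the sham groups, while the lead of CD3ϵ-/- TAC over WT TAC was smaller and TAC labelled CD8-depleted was highest. Only *Csf1r* and *Cd79a* chose the cells then, so cells other than monocytes and macrophages may be among them.

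**Figure D1:**
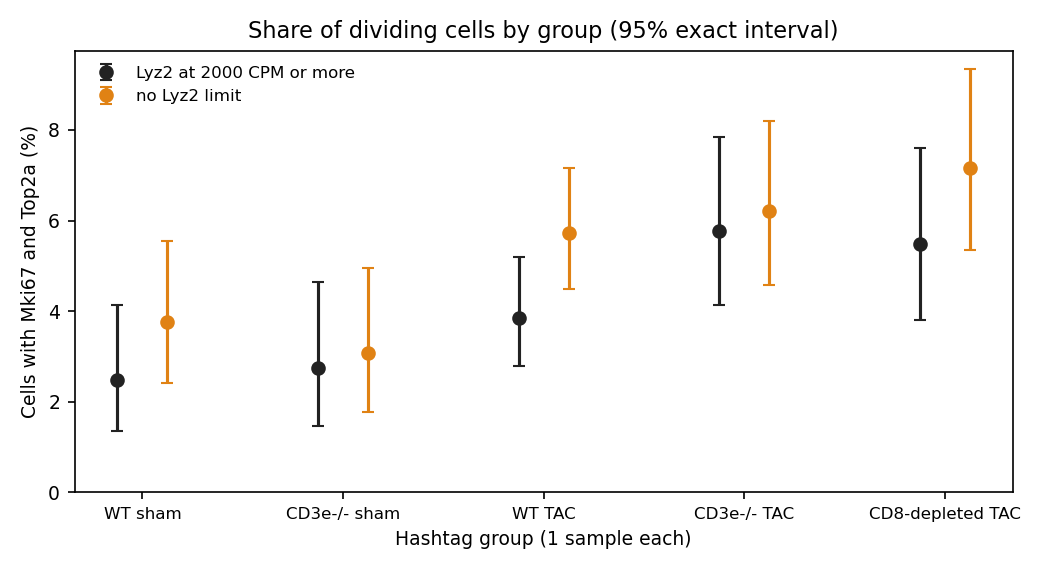
Percent of gated cells with at least 50 CPM of both *Mki67* and *Top2a* in each hashtag group, with exact 95% intervals. The gate is that of the text or lacks the *Lyz2* limit, when cells other than monocytes and macrophages may pass. Both sham groups lie below all TAC groups under these gates, between 2.48% and 2.74% with the *Lyz2* limit, but not when either division gene is enough.

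The dividing cells were large libraries. Their median reads per cell were 119080, 111590, 154574, 146849.5 and 146708, against 72907, 80290, 96454, 127090 and 101594 for the non-dividing cells. The median number of genes was also higher in every group, at 4198, 4341, 5089, 5532 and 5511 against 3315, 3457, 3992, 4639 and 4126. Of the dividing cells, 1, 2, 7, 2 and 5 had more reads than the 95th percentile of the non-dividing cells of their group. Median mitochondrial shares of reads were 5.67%, 4.90%, 4.93%, 4.61% and 5.56%, against 5.10%, 4.88%, 4.09%, 3.42% and 3.95%. A cell in division holds more RNA, and a pair of cells in 1 well does too. Which of these applied to the cells with most reads was not tested.

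*Mki67* ranged from 62.7 to 7145 CPM over the dividing cells, with medians of 1499, 1171, 1729, 1294 and 1345 CPM. *Top2a* ranged from 51.2 to 3743 CPM, with medians of 662, 661, 764, 703 and 712 CPM, so the groups differed little beside the spread of their cells. The fewest reads behind a member were 9 of *Mki67* and 8 of *Top2a*, and 11 of the 140 cells had under 100 CPM of either gene. Cells just inside the limit had 378 CPM of *Mki67* with 51.2 of *Top2a*, or 62.7 with 51.8, and cells just outside had 44.7 with 52.6, or 42.7 with 85.4. Most cells were far from it, since 3015 of the 3027 non-dividing cells had no read of either gene. In 452 B cells, which are another type of the pool, 1.11% (0.360 to 2.56) had both genes at the limit.

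*Lyz2* and *Csf1r*, the other genes of the gate, had medians in the dividing cells that differed from those of the non-dividing cells. The medians of *Lyz2* were 4269, 4588, 4940.3, 6309 and 5317 CPM in the dividing and 10749.8, 10142, 12068, 10776 and 12058 CPM in the non-dividing cells, so it was lower in every group. *Csf1r*, the receptor of the growth factor that keeps macrophages alive, had medians of 888, 1243, 1143, 983 and 1909 CPM against 1899, 1516, 1363, 1196 and 1375 CPM. It was lower in 4 groups and higher in TAC labelled CD8-depleted.

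The genes of mitosis ran high in the dividing cells of all groups. *Birc5*, which encodes the survivin subunit of the chromosomal passenger complex, had 401, 405, 325, 391 and 302 CPM when the reads of the dividing cells were summed and at most 2.93 CPM in those of the non-dividing cells. It reached 50 CPM in 77.1% of the dividing and 1.19% of the non-dividing cells. *Ube2c*, which loads ubiquitin for the anaphase-promoting complex, had 467, 357, 482, 521 and 367 CPM and reached the limit in 59.3% against 0.661% of the cells. *Prc1*, which bundles the microtubules of the midzone, had 529, 332, 408, 449 and 367 CPM and reached it in 68.6% against 0.859%. None of these 3 genes was used to choose the cells, but they belong to the program that the rule picked, and their spread over the groups was small beside their distance to the non-dividing cells.

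The promoters of these 5 genes are printed here to show which of them hold a pair of motifs that are known from promoters of cell cycle genes. The letters are the 120 bases before the transcription start, from RefSeq on GRCm38.p6, on the strand of the gene. Capitals mark the CHR (cell cycle genes homology region) motif TTTGAA and the CCAAT box, each on either strand, where they read TTCAAA and ATTGG.
*Mki67*, chr7:135716380-135716499, minus strand: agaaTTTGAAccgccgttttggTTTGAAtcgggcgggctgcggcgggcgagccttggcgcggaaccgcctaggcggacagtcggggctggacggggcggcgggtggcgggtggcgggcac
*Top2a*, chr11:99024190-99024309, minus strand: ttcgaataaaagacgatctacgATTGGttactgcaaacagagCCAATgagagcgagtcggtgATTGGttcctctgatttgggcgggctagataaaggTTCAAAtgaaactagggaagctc
*Birc5*, chr11:117849117-117849236, plus strand: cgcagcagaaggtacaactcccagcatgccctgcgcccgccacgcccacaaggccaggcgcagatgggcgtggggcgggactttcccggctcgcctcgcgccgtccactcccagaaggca
*Ube2c*, chr2:164769809-164769928, plus strand: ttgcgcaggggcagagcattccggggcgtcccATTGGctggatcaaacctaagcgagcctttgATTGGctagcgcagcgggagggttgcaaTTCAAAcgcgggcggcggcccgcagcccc
*Prc1*, chr7:80294356-80294475, plus strand: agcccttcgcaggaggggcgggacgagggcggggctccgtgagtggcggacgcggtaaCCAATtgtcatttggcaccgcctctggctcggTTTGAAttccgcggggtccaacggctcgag

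*Top2a*, *Ube2c* and *Prc1* held both motifs, *Mki67* held a pair of CHR motifs and no CCAAT box, and these letters were not in the window of *Birc5*. For *Prc1* the later of its 2 listed starts is shown, and the window of the earlier start held a CCAAT box but no CHR motif. Of 35 promoters matched to 33 of the 37 genes of the mitosis list with *Mki67* and *Top2a*, 9 (25.7%) held the CHR motif, 26 (74.3%) the CCAAT box and 8 (22.9%) both. In all 32851 promoters these shares were 7.12%, 21.3% and 1.5%. The 26 promoters of the DNA replication list had the CCAAT box in 61.5% and the CHR motif in 3.85%, and none held both. A match describes the letters of a window and is not a binding site.

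Across all genes, the dividing cells were compared with the non-dividing cells by the log2 ratio of their summed CPM in each group, with 10 CPM added to both. Of 4077 genes with at least 50 CPM in either set, 199 (4.88%) were at least 2-fold higher in all 5 groups and 38 (0.932%) at least 2-fold lower in all 5. The median ratio of all tested genes was -0.02, so the scale of both sets was the same. Since the same contrast chose the cells, these counts describe the cells and test nothing. Of the 199 genes, 71 belonged to *Mki67*, *Top2a* and the lists of division genes, and 128 did not.

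Of the 35 genes of the mitosis list, 34 reached the level for the ratio, and 34 were higher in all groups, with a median log2 ratio of 3.94. *Cdk1*, the kinase that starts mitosis, had 216, 103, 248, 213 and 192 CPM in the dividing cells and 1.78 CPM in all non-dividing cells. *Ccnb1*, its cyclin, had 164, 97.5, 164, 177 and 79.9 CPM against 0.0622 CPM. *Pttg1*, the securin of sister chromatids, was the gene below the level, and it had 34.4 CPM in the dividing and 38.1 CPM in the non-dividing cells.

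Of the 27 genes of the DNA replication list, 21 reached the level and 17 were higher in all groups, with a median log2 ratio of 2.18. *Tk1*, thymidine kinase, had 179, 212, 202, 120.3 and 150.4 CPM in the dividing cells against 2.54 CPM in the non-dividing cells. *Rrm2*, a subunit of the enzyme that makes deoxynucleotides, spread more widely over the groups, from 59.6 CPM in CD3ϵ-/- TAC to 318 CPM in CD3ϵ-/- sham. *Pcna*, the sliding clamp of DNA polymerase, had 166 CPM in WT sham and 637 CPM in WT TAC, and its log2 ratio ran from 0.08 to 2.29. It was 1 of 4 genes without a call, together with *Mcm3*, *Mcm6* and *Slbp*, and in each of them the ratio was above 0 in all groups.

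All 14 genes of the chromatin and cytoskeleton list were higher, with a median log2 ratio of 2.76. *Stmn1*, which takes microtubules apart, had 1334, 913, 989, 741 and 997 CPM in the dividing cells and 13.9 CPM in the non-dividing cells. *Hmgb2*, a chromatin protein, had 1737, 1512, 1428, 1314 and 1216 CPM against 125 CPM. Among genes outside the lists, the mitotic spindle genes *Aspm* (146 against 0.422 CPM) and *Kif15* (191 against 3.89 CPM), the kinetochore genes *Knl1*, *Spc25* and *Knstrn*, and the replication factor *Pclaf* (321 against 7.72 CPM) were among the 10 with the highest of the lowest ratios. *Hist1h2ap* and *Hist1h2ao* led with them, but histone genes are near copies of each other and their reads may be shared.

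The genes that drive or stop the cycle differed less. Of 14 of them that reached the level, 4 were higher in all groups, where 4.88% of all tested genes were. *Foxm1*, a transcription factor of mitotic genes, had a median log2 ratio of 3.05, the CDK4 and CDK6 inhibitor *Cdkn2c* 3.0, *E2f8*, a repressor of the E2F family, 2.70 and the pocket protein gene *Rbl1* 1.47. *Cdkn1b* had -0.19 and *Rb1* -0.09, both of which hold cells in G1. *Ccnd2*, a cyclin of G1, had 5.33, 18.9, 46.6, 9.46 and 37.8 CPM in the dividing cells and 71.2 CPM in the non-dividing cells, with ratios below 0 in all 5 groups. *Myc* had 36.8 against 31.3 CPM, and its ratio was on both sides of 0.

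To place the cells in the cycle, the summed CPM of the mitosis list was set beside that of the DNA replication list in each cell. The mitosis sum was the higher in 12 of 14, 9 of 13, 30 of 42, 27 of 38 and 22 of 33 dividing cells, that is in 85.7%, 69.2%, 71.4%, 71.1% and 66.7%. In cells with only 1 of the division genes it was 33.3%, 30.6%, 34.9%, 38.6% and 34.1%. Median mitosis sums were 11344, 5070.3, 8565, 8297 and 4699 CPM, and median replication sums 2349, 3155, 1807, 1418 and 2358 CPM. At a fixed depth of 38944 reads per cell the shares were 85.7%, 69.2%, 73.2%, 70.3% and 66.7%. The intervals of the 5 groups overlapped. The lists differ in length, so the shares compare cells and do not measure the time spent in a phase. The mitosis genes belong to the program that the rule picked. A high mitosis sum in cells with both rule genes, also beside cells with only 1, is thus partly set by the choice of cells.

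**Figure D2:**
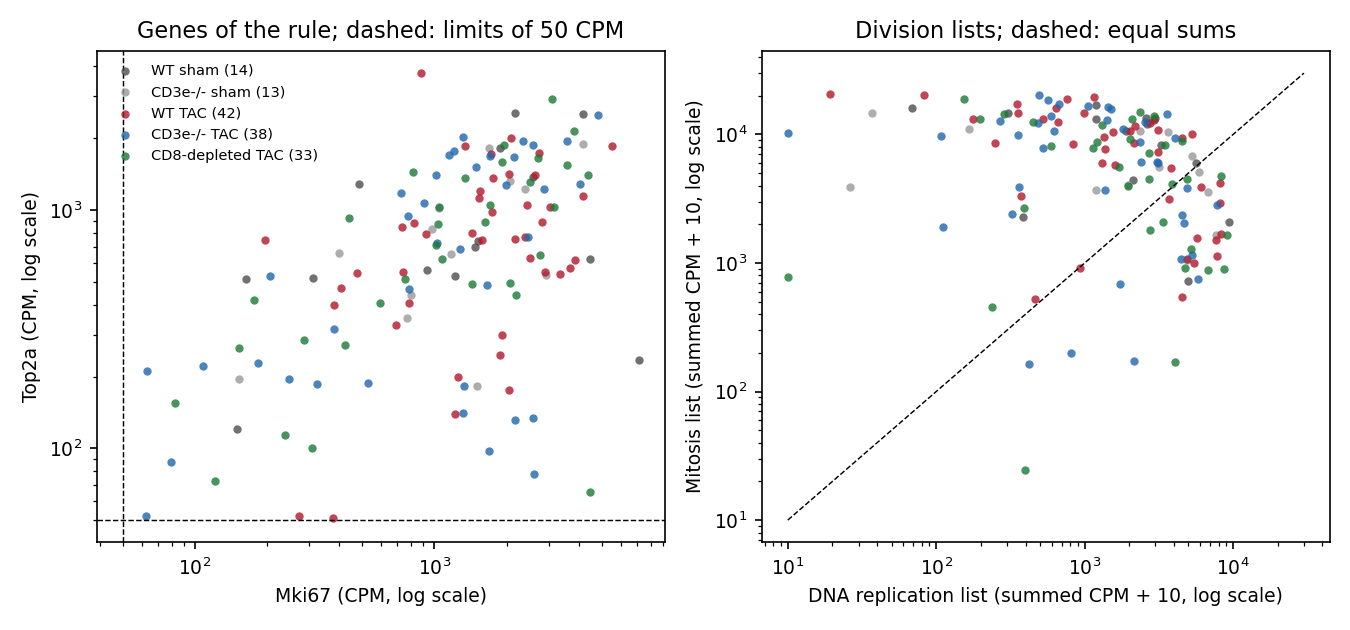
Each point is 1 dividing cell, coloured by hashtag group. The left panel plots *Top2a* against *Mki67* in CPM on log axes with the limits of 50 CPM dashed, and the right panel the summed CPM of the mitosis list against that of the DNA replication list, with 10 CPM added, on log axes with equal sums dashed. Most cells lie above the dashed line of equal sums, from 12 of 14 in WT sham to 22 of 33 in TAC labelled CD8-depleted, and each group has cells below it.

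The type of the dividing cells was read from the non-dividing cells around them. The non-dividing cells were clustered without the division lists and without genes at least 2-fold higher in the dividing cells, clusters were named by marker lists, and each dividing cell took the cluster that was most frequent among its 30 nearest non-dividing cells. A non-dividing cell fell into its own cluster by this vote in 94.9% of cases, and the median share of votes for a dividing cell was 76.7%, with 22 of the 140 cells below 50%. The cluster named *Lyve1* resident macrophage-like, with *Lyve1*, *Folr2*, *Cd163*, *Cbr2*, *Timd4*, *Gas6* and *F13a1*, took 62 of the 140 dividing cells (44.3%, 35.9 to 52.9) and 16.2% of the non-dividing cells. Typed by marker scores, 42 of 140 dividing cells (22.6 to 38.3%) and 13.3% of the non-dividing cells were of the *Lyve1* resident type. The *Ly6c*-high monocyte-like cluster took 3 dividing cells (2.14%, 0.444 to 6.13) and 17.2% of the non-dividing cells.

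Other types lay between these. The *Gpnmb* *Trem2* macrophage-like cluster held 22 dividing cells (15.7%, 10.1 to 22.8) and 12.5% of the non-dividing cells. The CCR2 MHC-II macrophage-like cluster held 17 (12.1%, 7.24 to 18.7) and 10.9%. An unnamed cluster led by *Retnla*, *Cd209a* and *Cd226* held 16 (11.4%, 6.68 to 17.9) and 6.21%. The *Lyve1*-low resident macrophage-like cluster, whose leading genes were the stress genes *Egr1*, *Hspa1a* and *Hspa1b*, held 8 (5.71%) and 9.55%. By marker scores the direction was opposite, with 41 dividing cells (29.3%, 21.9 to 37.6) and 20.7% of the non-dividing cells of this type. At clustering resolution 1.5, a *Lyve1*-low resident cluster led by *Col14a1*, *Nes* and *Cadm1* held 30 dividing cells, and the *Lyve1* resident cluster 31. The other *Lyve1*-low resident clusters then held 8 and 7. The split between both resident types thus depended on the setting. An unnamed cluster of cells with few reads, in which *Malat1* led, held 11 (7.86%) and 13.4%, and an unnamed cluster led by *S100a9*, *S100a8* and *Ace* held 1 (0.714%) and 9.51%. No dividing cell fell among the 76 cells of a cluster led by *Spp1*, *Fabp5* and *Gpnmb*, which allows a share of up to 4.74% of that cluster. None fell among the 59 cells of the *Saa3* *Arg1* macrophage-like cluster, which allows 6.06%.

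**Figure D3:**
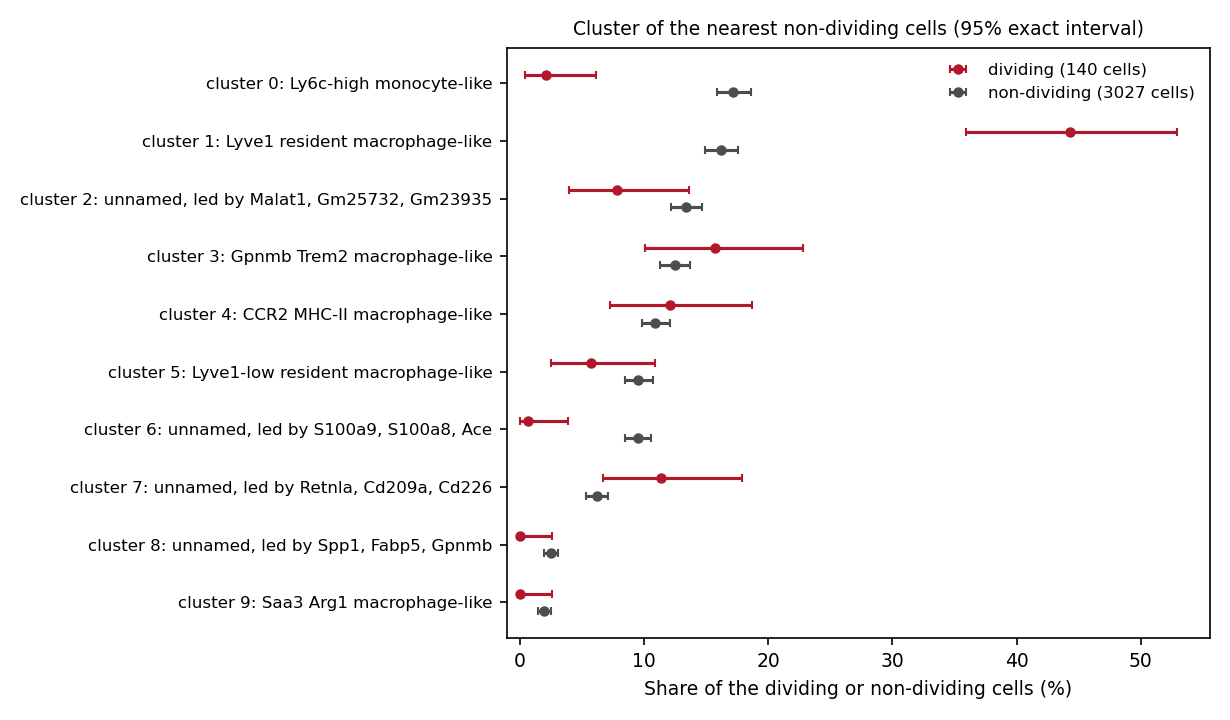
Percent of the dividing and of the non-dividing cells in each cluster, over all groups, with exact 95% intervals. The *Lyve1* resident macrophage-like cluster has 44.3% of the dividing against 16.2% of the non-dividing cells, and the *Ly6c*-high monocyte-like cluster 2.14% against 17.2%.

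The markers of each cluster were also read in the dividing cells themselves. These genes were not left out when the nearest cells were found. A likeness is therefore partly built in and is a description, not a separate check of the assignments. In the 62 dividing cells of the *Lyve1* resident macrophage-like cluster, 77.4% had at least 100 CPM of *Cbr2*, 53.2% of *Cd163*, 46.8% of *Folr2* and 21.0% of *Lyve1*, against 62.3%, 49.3%, 47.3% and 26.3% of its non-dividing cells. In other clusters 14.8%, 9.54%, 6.86% and 1.77% of the non-dividing cells had them, so the dividing cells resembled their own cluster in all 4 genes. All 17 dividing cells of the CCR2 MHC-II macrophage-like cluster had *Ccr2*, and 8 of 16 in the *Retnla*-led cluster had *Retnla*, which 2.78% of the cells of other clusters had.

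The names of other clusters held less well for their dividing cells. Of the 3 dividing cells in the *Ly6c*-high monocyte-like cluster, none had 100 CPM of *Ly6c2*, *Plac8*, *Chil3*, *Hp* or *Vcan*, and all 3 had *Mrc1*, which 25.1% of the non-dividing cells of that cluster had. *Gpnmb* was in 2 of 22 dividing cells of the cluster named after it (9.09%, 1.12 to 29.2) and in 24.7% of its non-dividing cells, while *Ms4a7* was in 90.9% and 93.1% and *Trem2* in 72.7% and 83.3%.

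Over all 140 dividing cells, genes of *Ly6c*-high monocytes were nearly absent. *Ly6c2*, the surface marker of inflammatory monocytes, reached 100 CPM in 1 of 140 cells (0.714%) and in 23.9% of the non-dividing cells. Its summed level in the dividing cells was 4.74, 7.01, 9.20, 10.3 and 9.53 CPM, against 124, 354, 433, 1018 and 1035 CPM in the non-dividing cells. *Plac8* had no read in any dividing cell, which allows a share of cells with a read of up to 2.60%, and was at 100 CPM in 29.0% of the non-dividing cells. *Chil3* reached it in 0.714% against 17.6%. Genes of *Ly6c*-low patrolling monocytes were mixed, with *Ace* in 0.714% against 7.96%, *Treml4* in 1.43% against 6.90% and *Cd300e* in 2.14% against 2.44%. When cells were typed by marker scores in place of neighbours, no dividing cell was a *Ly6c*-high monocyte, and 7 (2.03 to 10% of 140) were *Ly6c*-low monocytes, 4 of them in CD3ϵ-/- TAC, against 7.14% of the non-dividing cells. After thinning each cell to 38944 reads, *Ly6c2* was at 2.17% and 26.5%.

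Genes of tissue macrophages ranged from nearly all to few of the dividing cells. *Mrc1*, the mannose receptor CD206, reached 100 CPM in 94.3% of the dividing cells (89.1 to 97.5) and in 64.3% of the non-dividing cells, against 2.88% of B cells. By group it was in 100%, 92.3%, 95.2%, 89.5% and 97.0% of the dividing and in 79.1%, 75.3%, 60.4%, 53.2% and 60.4% of the non-dividing cells. The fractalkine receptor gene *Cx3cr1* was in 89.3% against 76.5%, and *Cbr2*, a reductase gene of resident macrophages, in 43.6% against 22.5%. *Folr2* was in 25% against 13.4% and *Cd163*, the receptor of haemoglobin, in 27.1% against 16%. *Lyve1*, a hyaluronan receptor, was in 10% (5.58 to 16.2) against 5.75%, and *Timd4*, a receptor for dying cells, in 3.57% against 3.11%. Their summed levels were 89.3 against 90.1 CPM for *Folr2*, 108 against 79.4 CPM for *Lyve1* and 5.07 against 13.7 CPM for *Timd4*. On the list of *Lyve1*-low resident macrophages, the collagenase gene *Mmp13* was in 7.14% against 10.5%. *Lilra5* went the other way with 28.6% against 21.1%, and so did *Slco2b1* with 36.4% against 32.3%. The intervals of these genes overlapped. *Cx3cr1*, given above, is on the same list.

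*Ccr2*, the receptor that brings monocytes into tissue, was in 50.7% of the dividing cells (42.1 to 59.3) and in 64.2% of the non-dividing cells. The groups differed: 42.9%, 38.5%, 54.8%, 68.4% (51.3 to 82.5) and 33.3% (18.0 to 51.8) of the dividing cells had it, against 44.7%, 57.9%, 70.4%, 73.4% and 66.7% of the non-dividing cells. Its summed level was 850.0, 728, 1416, 1459.8 and 707 CPM in the dividing cells, so both remaining TAC groups were at about the same level and TAC labelled CD8-depleted was at the level of the sham groups. The MHC class II gene *H2-Aa* was in 70.0% against 69.8%. *Spp1*, osteopontin, was in 30.7% against 19.4%, but its summed level was 266 against 765 CPM. Its median per cell was 22.3 against 10.4 CPM, so the typical dividing cell was not lower. The cluster led by *Spp1*, *Fabp5* and *Gpnmb*, which held no dividing cell, had a mean of 8830.1 CPM in its non-dividing cells. *Thbs1*, thrombospondin, was in 1.43% against 17.7%.

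**Figure D4:**
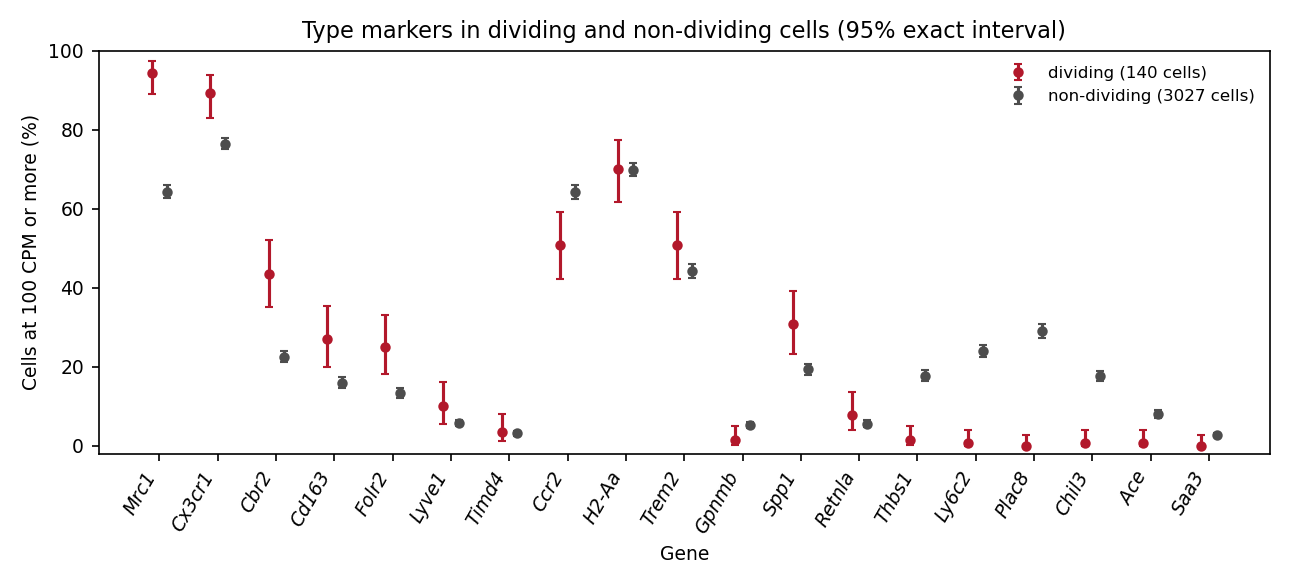
Percent of dividing and of non-dividing cells with at least 100 CPM of each marker, over all groups, with exact 95% intervals. *Mrc1* is in 94.3% of the dividing cells and *Ly6c2* in 0.714%, against 64.3% and 23.9% of the non-dividing cells.

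The *Lyve1* resident macrophage-like cluster held 9 of 14 dividing cells in WT sham (64.3%, 35.1 to 87.2), 3 of 13 in CD3ϵ-/- sham (23.1%), 17 of 42 in WT TAC (40.5%, 25.6 to 56.7), 13 of 38 in CD3ϵ-/- TAC (34.2%, 19.6 to 51.4) and 20 of 33 in TAC labelled CD8-depleted (60.6%, 42.1 to 77.1). Its shares of the non-dividing cells were 23.2%, 14.8%, 15.6%, 8.70% and 19.9%, which were lower in all groups. By marker scores the share of the dividing cells was 42.9%, 30.8%, 31.0%, 18.4% and 36.4%, lower than by neighbours in 4 groups and over 1.5 times lower in CD3ϵ-/- TAC and TAC labelled CD8-depleted, against 25.5%, 12.0%, 11.9%, 6.26% and 12.7% of the non-dividing cells. Together with the *Lyve1*-low resident macrophage-like cluster, it held 70 of the 140 dividing cells (50%) and 25.8% of the non-dividing cells. By group these resident clusters held 71.4% of the dividing cells in WT sham (41.9 to 91.6) and 53.8% in CD3ϵ-/- sham (25.1 to 80.8). After TAC they held 42.9% in WT (27.7 to 59.0), 34.2% in CD3ϵ-/- (19.6 to 51.4) and 66.7% in the cells labelled CD8-depleted (48.2 to 82.0). Of the non-dividing cells they held 48.5%, 36.9%, 19.1%, 9.57% and 24.4%. The share in CD3ϵ-/- TAC was the lowest and that in TAC labelled CD8-depleted the highest of the TAC groups, with intervals that overlapped. By marker scores the *Lyve1*-low resident type held 23.8%, 34.2% and 27.3% of the dividing cells of the TAC groups. The order of the TAC groups thus differed between both resident types. Without the *Lyz2* limit the resident share in TAC labelled CD8-depleted was lower.

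Outside the resident clusters, the *Gpnmb* *Trem2* macrophage-like cluster held 8, 9 and 4 dividing cells in WT, CD3ϵ-/- and CD8-depleted TAC, the CCR2 MHC-II macrophage-like cluster 6, 7 and 3, the *Retnla*-led cluster 4, 3 and 4 and the *Malat1*-led cluster 4, 4 and 0. In the sham groups the *Gpnmb* *Trem2* and the CCR2 MHC-II macrophage-like cluster held 1 dividing cell each. The *Ly6c*-high monocyte-like cluster, which made up 2.32%, 3.29%, 20.1%, 27.1% and 26.9% of the non-dividing cells, held 0, 0, 2, 1 and 0 dividing cells. The *Saa3* *Arg1* macrophage-like cluster had 46 non-dividing cells in CD3ϵ-/- TAC and no dividing cell, which allows a share of up to 7.71%.

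Read as a rate, dividing cells made up 11.2% of the *Lyve1* resident macrophage-like cluster (8.70 to 14.1), 7.84% of the *Retnla*-led cluster (4.55 to 12.4), 5.51% of the *Gpnmb* *Trem2* and 4.89% of the CCR2 MHC-II macrophage-like cluster, and 0.573% of the *Ly6c*-high monocyte-like cluster. Within the resident clusters the rate was 3.83% of 261 cells in WT sham (1.85 to 6.93), 4.27% of 164 in CD3ϵ-/- sham (1.73 to 8.6), 8.74% of 206 in WT TAC (5.26 to 13.5), 19.1% of 68 in CD3ϵ-/- TAC (10.6 to 30.5) and 14.6% of 151 under the label CD8-depleted (9.36 to 21.2). In the other clusters it was 1.48% (0.405 to 3.75), 2.19% (0.808 to 4.71), 2.93% (1.89 to 4.33), 4.59% (2.99 to 6.70) and 2.68% (1.35 to 4.75). They include the *Malat1*-led cluster of few reads, with 104 of their 270 cells in WT sham. Its best match was the *Lyve1*-low resident type, by *Lilra5* and *Slco2b1*, but it had fewer than the 3 markers needed for a name. The intervals of resident and other clusters were apart in each TAC group and overlapped in both sham groups. The other clusters also pool macrophages with monocyte-like clusters of few dividing cells. In the TAC groups the *Gpnmb* *Trem2* cluster had 4.10% (1.79 to 7.92), 8.26% (3.85 to 15.1) and 5.33% (1.47 to 13.1). These intervals overlapped those of the resident clusters. The *Retnla*-led cluster had 18.2% (5.19 to 40.3) under the label CD8-depleted, above the resident rate. In the other TAC groups it was below. Without the *Lyz2* limit the rate in the other clusters was 4.19%, 2.69%, 4.36%, 4.95% and 5.99%, over 1.5 times higher in WT sham and TAC labelled CD8-depleted. That in the resident clusters was then 3.89%, 3.91%, 11.2%, 19% and 11.7%, so it was below the other clusters in WT sham, and for TAC labelled CD8-depleted the intervals overlapped (7.55 to 17.0 and 3.95 to 8.65). The other clusters then included 1 led by *Cpa3*, *Malat1* and *Tpsb2*, with 9 dividing cells, and 1 led by *Cd209a*, *Retnla* and *Ccl17*, with 35. *Cpa3* and *Tpsb2* are mast cell genes and *Cd209a* is on the dendritic cell list, and the part of such cells was not tested. In CD3ϵ-/- TAC the high rate stood beside the lowest number of resident cells. The choice to count both clusters as resident was made after the clusters had been seen, and cells of 1 group share 1 library, so the intervals hold no spread between mice.

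**Figure D5:**
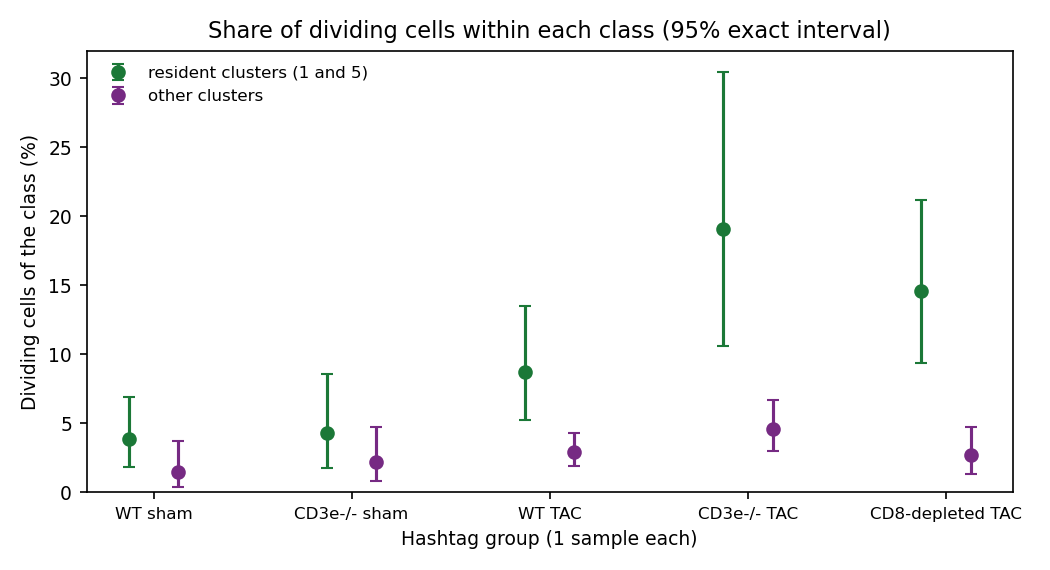
Percent of cells that were dividing within the resident clusters and within the other clusters, by hashtag group, with exact 95% intervals. The resident rate runs from 3.83% in WT sham to 19.1% in CD3ϵ-/- TAC, and the rate of the other clusters from 1.48% to 4.59%, all with the *Lyz2* limit.

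Of the 38 genes lower in the dividing cells of all groups, *Plac8*, *Thbs1*, *Ly6c2* and *Chil3* led, followed by *Mgst1* (4.66 against 64.4 CPM), the predicted gene *Gm9733*, *Clec4e* (8.26 against 100.1 CPM), *Vcan* (2.45 against 83.3 CPM) and *Ifitm6* (9.90 against 148 CPM). The dividing cells of each group were also set against non-dividing cells of the same group and cluster. The reference was the mean CPM over cells, weighted by the clusters of the dividing cells, without clusters of under 5 non-dividing cells. The dividing side stayed summed reads, so the measure changed along with the matching, and their parts were not told apart. By this, 188 genes were higher, of which 179 were the same genes as before, and 6 were lower, of which 2 were the same. The 6 were *Plac8*, *Lst1*, *Cd63*, *Igf1*, *Mmp13* and *Apoe*.

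The growth factor receptors that could carry signals to divide showed no call in 10 tested genes, with a median log2 ratio of -0.43. Calls were rare among all tested genes (4.88% higher and 0.932% lower), so a list this short without a call does not stand out. *Il3ra*, the receptor chain of IL-3, had 93.5, 31.8, 61.4, 45.9 and 58.6 CPM in the dividing cells and 26.6 CPM in the non-dividing cells. *Csf2rb*, the shared chain of the receptors of GM-CSF and IL-3, had 118 against 238 CPM, and *Il4ra* 88.2 against 138 CPM.

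The factors that set macrophage identity and self-renewal showed no call in 9 tested genes either, with a median log2 ratio of -0.82 (-0.50 against cells of the same cluster). Here too the absence of calls is near the shares of all tested genes, 4.88% higher and 0.932% lower. *Maf*, which is known to hold macrophages out of division, had 807, 371, 352, 463 and 438 CPM in the dividing cells, or 437 against 455 CPM in all. Against cells of the same group and cluster, its log2 ratio was -1.09 to -0.12, below 0 in all 5 groups. *Klf2* had 115 against 310.2 CPM and *Klf4* 206 against 542 CPM, both of which are linked to self-renewal. *Bhlhe40*, which is needed for the division of peritoneal macrophages, had 32.7 against 101 CPM. *Spi1*, which encodes the lineage factor PU.1, had 513 against 565 CPM, and *Gata6*, the factor of peritoneal macrophages, had no read in the dividing cells.

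Among the repair genes that the study followed, 2 of 6 tested were lower in all groups, against 0.932% of all tested genes. The study chose this list on these samples, so it is not independent evidence of a direction. Neither gene was called against cells of the same group and cluster. *Osm*, oncostatin M, had 0, 24.8, 13, 21.4 and 33.6 CPM in the dividing cells and 143 CPM in the non-dividing cells. *Ptgs2*, cyclooxygenase 2, had 6.46 against 52.2 CPM. Against cells of the same group and cluster, the log2 ratio of *Osm* was -1.69 to 0.08 and that of *Ptgs2* -1.74 to -0.11. *Arg1*, arginase, had 10.1 against 312 CPM, with no read in 3 of the 5 groups. *Igf1*, a growth factor for heart muscle, had 45.0, 67.4, 125, 132 and 152 CPM in the dividing cells, which was higher in each TAC group than in either sham group. Its log2 ratio was -1.99 to -0.20, and -2.51 to -1.33 against cells of the same group and cluster. *Msr1*, a scavenger receptor, had 155 against 312 CPM, and *Cd163* 117 against 88.2 CPM, with ratios on both sides of 0.

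No gene of glycolysis (10 tested), the interferon response (8), the dissociation response (10) or MHC class II (7) was called. Of all tested genes 4.88% were called higher and 0.932% lower, so no call in lists this short is near those shares. The median log2 ratios were -0.69, -1.61, -0.85 and -0.22, and against cells of the same group and cluster 0.10, -0.22, -0.62 and -0.48. The interferon list differed most between these settings, and its summed level was 78.1, 235, 868, 169.7 and 316 CPM in the dividing cells and 241, 336, 1215, 1559 and 1986 CPM in the non-dividing cells.

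Between the TAC groups, the dividing cells had few differences in common. Of 4535 genes with at least 50 CPM in a TAC group, 19 (0.419%) were at least 2-fold higher in both CD3ϵ-/- TAC and TAC labelled CD8-depleted than in WT TAC, and 31 (0.684%) at least 2-fold lower in both. WT TAC is shared by both ratios. In the order WT TAC, CD3ϵ-/- TAC and TAC labelled CD8-depleted, *Commd7* had 38.6, 108 and 113 CPM, *Dctn5* of the dynactin complex 28.8, 82.1 and 87.8 CPM, and the RNA helicase gene *Ddx47* 27.0, 87.9 and 75.2 CPM. In the non-dividing cells *Commd7* had 85.5, 80.1 and 84.9 CPM, so it was WT TAC that stood low in the dividing cells.

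The genes that were lowest in both groups were mast cell genes, and they came from 1 cell. *Cpa3* had 504 CPM in WT TAC and none in the others, *Tpsb2* 502 CPM and none, *Cma1* 803, 8.31 and 5.89 CPM and *Mcpt4* 648, 7.60 and 9.70 CPM. At least 98.8% of the reads of each lay in 1 cell of WT TAC with 321939 reads and 8213 genes, which also had 578 CPM of *Kit*, the receptor of mast cells, beside 1115 CPM of *Csf1r* and 2867 CPM of *Lyz2*. *Cxcl9*, an interferon-induced chemokine with 189 CPM in WT TAC, also lay in 1 cell. Another dividing cell in WT sham and 1 in CD3ϵ-/- sham also had 2 or more of the 4 mast cell genes at 50 CPM, at lower levels. These genes were picked after their values had been seen. Without the 3 cells, 19 genes were higher and 26 lower.

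Of the repair genes, *Igf1* had 125, 132 and 152 CPM in WT, CD3ϵ-/- and CD8-depleted TAC and *Msr1* 154, 157 and 186 CPM, while *Cd163* had 148, 59.1 and 117 CPM, *Osm* 13, 21.4 and 33.6 CPM and *Arg1* 8.83, 25.1 and 0 CPM. *Lyve1* had 72.0, 23.5 and 258 CPM, but 56.8% to 68.1% of its reads in a group lay in 1 cell, and the 282 CPM of *Gpnmb* in CD3ϵ-/- TAC all lay in 1 cell. *H2-Aa* had 5679, 3797 and 3806 CPM.

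Of the markers of other cell types, those of B cells were the most frequent. No dividing cell had 2 or more genes at 50 CPM of the T cell list, the NK cell and ILC list or the neutrophil list, and *Trac*, *Cd3g*, *Cd8a*, *S100a8*, *S100a9* and *Retnlg* had no read in any of them. The dendritic cell list had 2 or more genes in 0, 0, 2, 1 and 3 dividing cells and in 2.09% to 3.16% of the non-dividing cells of a group. The B cell list had them in 2, 1, 3, 4 and 6 dividing cells, which was 14.3%, 7.69%, 7.14%, 10.5% and 18.2%, against 6.09% to 8.0% of the non-dividing cells. Nearly all of its reads were of *Ighm*, the heavy chain of IgM, with 319 against 228 CPM, while *Pax5* and *Ms4a1* were under 1 CPM in the dividing cells. The list of bone marrow progenitors had them in 1 cell of WT TAC, and the list of heart cells in 1 cell each of WT TAC and CD3ϵ-/- TAC. The summed median of the B cell list was 565, 0, 226, 280.1 and 398 CPM, and its part in the shares above was not tested.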

How the data were processed

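The authors deposited raw counts of reads per gene and cell barcode (TAS-Seq, 1 pooled library, no molecular identifiers) after error correction and hashtag assignment, without normalization, and the group of each hashtag was taken from their deposited notes. The submitters' processing notes name cutadapt 2.10, Bowtie2 2.4.2 and GRCm38 without a role. Of 5363 columns and 27809 genes, 40 doublets called by the authors and 8 untagged columns were left out, and no barcode was shared. The members, gene lists and rules were chosen with earlier results of these data known.

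Counts were scaled to CPM per cell. With Python 3.11.15, numpy 2.4.6, scipy 1.17.1, pandas 2.3.3, scikit-learn 1.9.0, python-igraph 0.11.9, leidenalg 0.10.2 and matplotlib 3.10.9, 3000 variable genes and 30 principal components fed a shared neighbour graph of 30 neighbours, parted by Leiden at resolution 1. A cluster took a name with at least 3 markers at 2-fold, 2 ahead of the next type. Named genes were those of the gate and the 5 division genes, members of the lists and type markers, chiefly the highest and lowest ratios of each list, the 10 leading genes on each side against non-dividing cells, and the 5 on each side between TAC groups. Shares have exact Clopper-Pearson and sums exact Poisson intervals. For a count of 0, the limit printed is the upper end of the exact interval. For fixed depth, cells were thinned to 38944 reads, which kept 138 dividing and 2705 non-dividing cells. Of the listed genes 3 were matched through older symbols and 1 had no row used here. The steps were tested on simulated data. Some listed genes are not reported here.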

Additional observations from a re-analysis of the deposited data

How the results depend on the processing

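Of 158 values recomputed for the 24 main results, 135 stayed within the spread allowed (their interval, or 1.5 times for counts), and 23 did not. With either gene at 50 CPM in place of both, the dividing shares were 8.33%, 10.3%, 9.66%, 12.5% and 12.3%, which put WT TAC below CD3ϵ-/- sham, against the order with both genes. With dividing cells defined by a mitosis sum above 4689.5 CPM, they were 3.81% in CD3ϵ-/- TAC and 2.99% in TAC labelled CD8-depleted. That limit was the 99th percentile of the 516 kept cells with at least 200 CPM of *Cd79a*, dividing ones included. Of all kept cells, dividing cells were 2.60% in WT TAC and 3.69% in TAC labelled CD8-depleted. With doubled *Csf1r* and *Lyz2* limits, they were 1.06% in CD3ϵ-/- sham and 2.64% in WT TAC. In WT TAC the share was 5.72% without the *Lyz2* limit and 5.27% with 1000 CPM. Resident clusters took 52.6% of the dividing cells of CD3ϵ-/- TAC when typed by marker scores, 46.9% in TAC labelled CD8-depleted without the *Lyz2* limit, and 23.1% in CD3ϵ-/- sham when the *Lyve1* cluster alone was counted. Without the *Lyz2* limit, the rate in the other clusters was 4.19% for WT sham, 4.36% for WT TAC and 5.99% for TAC labelled CD8-depleted. Genes lower in all groups numbered 6 against cells of the same cluster and 59 without cells of high reads. Genes higher than in WT TAC in both other TAC groups numbered 48 with 1 CPM added and 46 without cells of high reads. The cause was not tested. The *Lyz2* limits, the *Lyve1* cluster alone, and the cells of high reads or mast cell genes were alternatives chosen after seeing the data. Of 460 values of single genes, 79 moved. With 13 to 42 dividing cells per group, depth in cells limits all comparisons of groups. No paired analysis was possible because each group was 1 sample, and for the same reason no replicate could be left out.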
